A study of Mus musculus with 4 samples.

Results

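The sperm tail and manchette mRNAs are 39 gene models, of 50600 in each library, that were chosen by gene symbol for a part in the outer dense fibres, the fibrous sheath, the axoneme, the manchette or the mitochondrial sheath of the sperm cell. All 39 symbols were found, each with 1 model, and all 39 had counts in every library, so no member was without counts. The data are RNA immunoprecipitation (RIP) libraries, a method that recovers a protein from lysed tissue with a bead-bound antibody and sequences the RNAs that come with it. There were 2 groups of 2 libraries from testes of C57BL/6 mice at 8 weeks of age, with no genetic change or treatment named in the labels. In the LARP7 group the antibody was directed at LARP7, a member of the La-related family that is known for its hold on the 7SK and U6 RNAs, and in the IgG group it was a non-specific immunoglobulin, which measures RNAs that stick to the beads without LARP7. Inserts of 15 to 300 nt were selected with a small RNA kit, so counts of an mRNA are counts of short fragments of it. The series names the pair in each group biological replicates but not whether they came from separate animals, so the p-values speak for the spread of these libraries alone, part of which may be technical.

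The sperm tail is a motile cilium with added parts. Its core is the axoneme, a ring of microtubule doublets moved by dynein arms, and around it lie the outer dense fibres, the fibrous sheath with its anchored protein kinase A, and a sheath of mitochondria. The manchette is a transient skirt of microtubules on the head of the elongating spermatid along which tail proteins are carried. Spermatids stop transcription while the tail is still being built, and many of these mRNAs are known to be stored and translated late.

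Libraries held 4411271 to 6994514 expected counts. The 7SK RNA, Rn7sk, a known LARP7 ligand, served as a check of the precipitation. Its counts were 316542 and 931240 under LARP7 against 38611 and 61786 under IgG (log2 fold change 4.53, edgeR adjusted p = 0.0167). The scaling of the libraries shifts every fold change. With trimmed means (TMM, which scales on the bulk of the genes) the 12234 genes tested had a median log2 fold change of -0.05, and with library totals one of -1.47, a shift of -1.42. The protein-coding share of a library was 17.7% ± 3.84 (SD, n = 2) for LARP7 and 40.3% ± 2.85 for IgG. Levels are given as CPM, counts scaled to a common TMM-adjusted library size, unless stated otherwise.

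The sperm tail and manchette mRNAs were lower in the LARP7 RIP than in the IgG RIP. Their 39 models summed to 4466 and 3191 counts under LARP7 and to 34695 and 14993 under IgG. As a share of all protein-coding counts, which needs no scaling factor, this was 0.432% and 0.241% against 1.17% and 0.888%. The share was thus below both IgG libraries in each LARP7 library, and its mean was 3.06-fold lower. Of the library total the members took 0.0568% ± 0.0110 (SD, n = 2) against 0.418% ± 0.110. These shares were not tested, since with 2 libraries a group an exact permutation test, two-sided, cannot go below p = 0.333. The libraries are of whole testis, in which more cells of a type and more RNA per cell cannot be told apart.

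**Figure D1:**
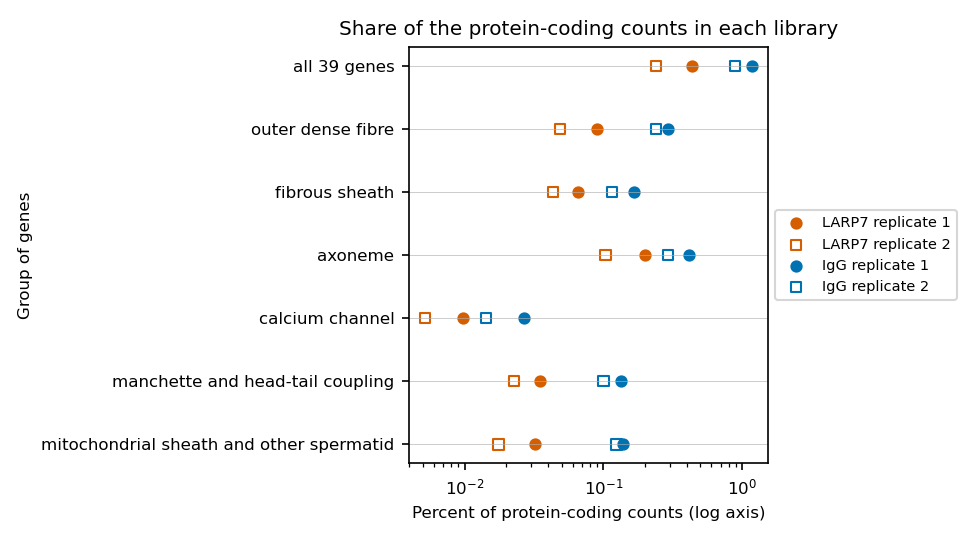
Percent of all protein-coding counts (log axis) taken by the 39 genes and by each group of them; points are single libraries, orange for LARP7 and blue for IgG. For the 39 genes together the LARP7 libraries lie at 0.432% and 0.241% and the IgG libraries at 1.17% and 0.888%, and in every group both orange points lie left of both blue ones.

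Gene by gene, 22 of the 38 members tested fell with the LARP7 antibody and 0 rose (edgeR quasi-likelihood test, TMM scaling, Benjamini-Hochberg adjusted p under 0.05 over 12234 genes). Over all genes tested 9.69% fell and 14.5% rose, and over the 9929 protein-coding genes 10.5% fell and 11.0% rose. At an unadjusted p under 0.05, 33 members were lower and 0 higher, where 18.2% of all genes were lower and 20.9% higher, and DESeq2 called 20 lower, where 5.96% of all genes were, and 0 higher. That 5.96% counts as not called the 1424 genes for which DESeq2 gave no adjusted p. All 38 had a log2 fold change below 0, as did 51.4% of all genes tested. The median over the 38 was -1.65, with a range of -2.51 to -0.59 and standard errors of 0.42 to 0.72. With library totals all 38 were called lower and 0 higher, where 47.1% of all genes were lower and 3.95% higher, and the median was -3.08. Taken relative to the median of all genes, the members' median was -1.62 with library totals and -1.60 with TMM. Without a filter on low counts edgeR called 27 of 39 members lower (5.13% of all genes), and limma on log2(TPM + 0.1) called 38 (52.1%). Among the 22 members above, Odf3 and Fscn3 passed that filter through the IgG libraries, where they were high. Both LARP7 libraries lay below both IgG libraries in 37 of the 39 members, the exceptions being Akap14 and Catsper3, and in 35.6% of all genes tested and 39.5% of the protein-coding ones.

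The number of calls depended on single libraries. Without LARP7 replicate 2 edgeR called 1 member lower, Rimbp3, where 0.409% of all genes were called lower. Without LARP7 replicate 1 it called 13 (5.63% of all genes), without IgG replicate 1 also 13 (6.30%) and without IgG replicate 2, 21 (8.35%). The direction was the same for all 38 members in each of these fits, and the medians ran from -1.98 to -1.37. Besides Rimbp3, which was called in each of the 4, Spag6, Tekt1, Tekt2, Tekt3, Meig1, Spem1, Smcp and Gsg1 kept their calls in the other 3 fits. Of the replicates, LARP7 replicate 1 was above LARP7 replicate 2 in 34 of the 39 members, with medians of 9.09 and 7.57 CPM, and IgG replicate 1 was above IgG replicate 2 in 28, with medians of 34.0 and 25.8 CPM.

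**Figure D2:**
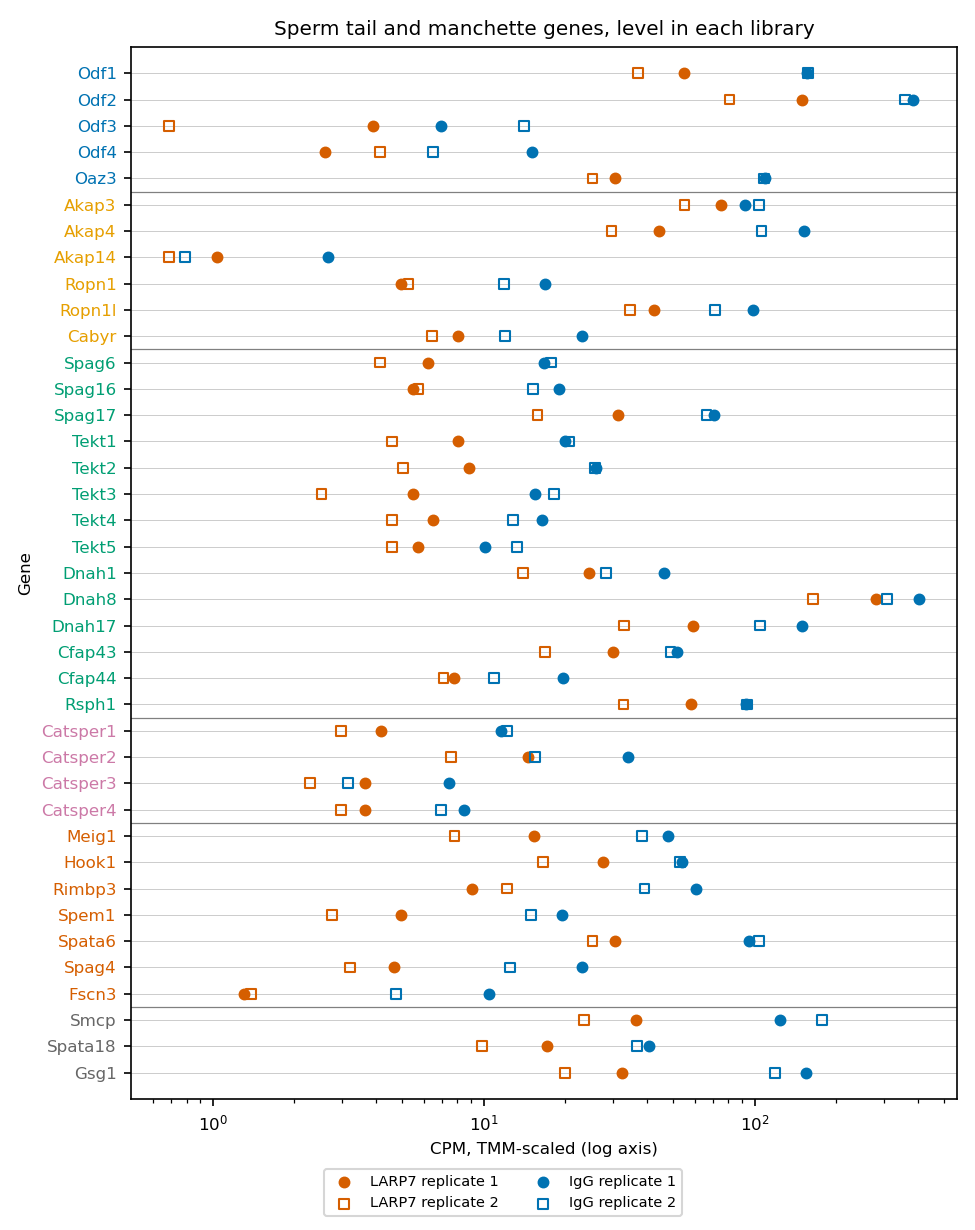
Level of each of the 39 genes in each library as TMM-scaled CPM (log axis), with genes in rows grouped by role; orange marks LARP7, blue marks IgG, circles replicate 1 and squares replicate 2. The orange points lie left of the blue ones in every row but those of Akap14 and Catsper3.

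**Figure D3:**
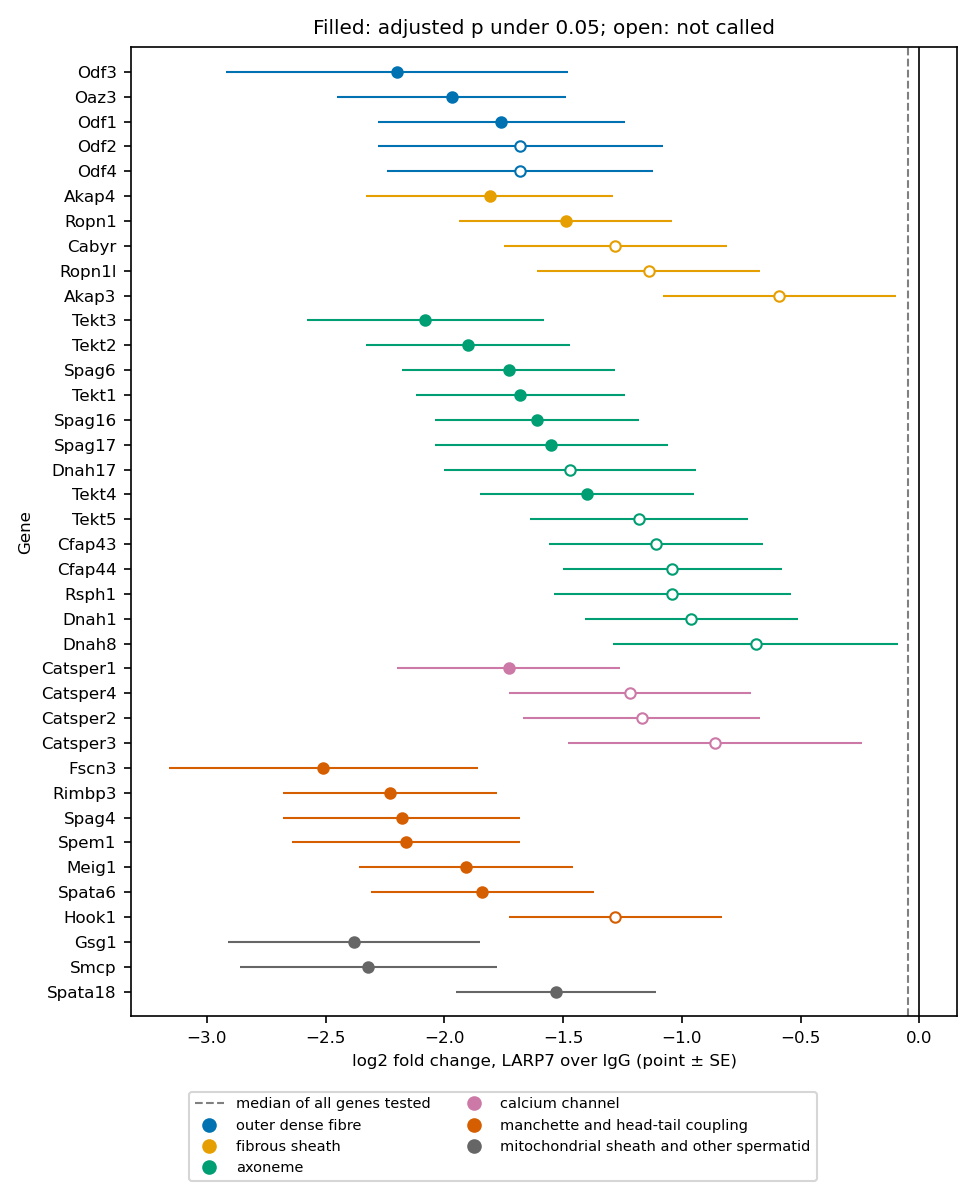
Log2 fold change of LARP7 over IgG with its standard error for the 38 genes tested, by role; filled points passed the adjusted threshold and the dashed line is the median of all genes. All points lie below 0, from -2.51 for Fscn3 to -0.59 for Akap3.

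The outer dense fibres are stiff rods of cysteine-rich protein that run along the axoneme. Of the 5 members in this group 3 fell, Odf1, Odf3 and Oaz3. Odf1, a main protein of the fibres, had 55.1 and 37.2 CPM with the LARP7 antibody and 156 and 157 CPM with IgG. The IgG libraries lay close together and the LARP7 libraries well below them (log2 fold change -1.76, SE 0.52, edgeR adjusted p = 0.0334). Oaz3, the testis form of ornithine decarboxylase antizyme, showed the same order, with 30.4 and 25.2 CPM against 109 and 108 CPM (-1.97, SE 0.48, edgeR adjusted p = 0.0183). Odf2, the fibre protein that is also found at centrosomes, had the most counts of the group, with 578 and 352 against 4913 and 2260. Its levels were 150 and 80.8 CPM against 384 and 358 CPM. These did not overlap, yet the spread between the LARP7 libraries was wide and the test was missed in edgeR (-1.68, SE 0.60, edgeR adjusted p = 0.0636), though not in DESeq2 (-1.63, adjusted p = 0.00649). Odf3, a gene named for these fibres, had few counts with the LARP7 antibody, 15 and 3 against 89 and 89, or 3.90 and 0.688 CPM against 6.95 and 14.1 CPM. The replicates of Odf3 thus differed about as much as the groups (-2.20, SE 0.72, edgeR adjusted p = 0.0497). Odf3 passed the filter on low counts through the IgG libraries, where it was high, as LARP7 replicate 2 was too low. Its value is limited by depth. Odf4 had 2.60 and 4.13 CPM against 15.1 and 6.49 CPM and just missed the threshold (-1.68, SE 0.56, edgeR adjusted p = 0.0504). Odf1 lost its call whichever library was left out (-2.07 and -1.51 without LARP7 replicates 1 and 2, -1.75 and -1.74 without IgG replicates 1 and 2). Oaz3 lost it without LARP7 replicate 1 (-2.11) or 2 (-1.84), and Odf3 when the second replicate of LARP7 (-1.41) or of IgG (-1.60) was left out, and in DESeq2 (-2.17). Odf4 was called without IgG replicate 2 (-2.13).

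The fibrous sheath surrounds the principal piece of the tail and holds protein kinase A through anchoring proteins. Of its 6 members 5 were tested and 2 fell, Akap4 and Ropn1. Akap4, the X-linked anchoring protein that is the sheath's most abundant component, had 44.2 and 29.6 CPM with the LARP7 antibody and 152 and 106 CPM with IgG. Even its lower IgG value was above the higher LARP7 value by more than the LARP7 libraries differed from each other (log2 fold change -1.81, SE 0.52, edgeR adjusted p = 0.0301). Akap3, the anchoring protein laid down earlier in the sheath's ribs, had the smallest difference of the 38, with 75.4 and 55.1 CPM against 92.5 and 104 CPM (-0.59, SE 0.49, edgeR adjusted p = 0.386). The groups did not overlap for Akap3 either, but the gap was of the size of the replicate spread. The ratio of Akap4 to Akap3 counts within a library, which no scaling can alter, was 0.586 and 0.537 in the LARP7 libraries and 1.65 and 1.02 in the IgG libraries. This pair was chosen after the values were seen, and the difference between the genes was not tested. Ropn1 and Ropn1l encode related proteins that bind the sheath's anchoring proteins. Ropn1 had 4.94 and 5.28 CPM against 16.8 and 11.9 CPM, with close LARP7 libraries (-1.49, SE 0.45, edgeR adjusted p = 0.0359). Ropn1l had more counts, 164 and 151 against 1263 and 452, and missed the threshold (-1.14, SE 0.47, edgeR adjusted p = 0.0994). Cabyr, a calcium-binding protein of the sheath, had 8.05 and 6.43 CPM against 23.0 and 12.0 CPM (-1.28, edgeR adjusted p = 0.0655). Akap14 had 4 and 3 counts against 34 and 5 and did not pass the filter on low counts. Its groups overlapped, at 1.04 and 0.688 CPM against 2.66 and 0.791 CPM, so no difference was detectable at this depth. The calls of Akap4 and Ropn1 were lost when either LARP7 library was left out (-2.13 and -1.44 for replicate 1, -1.55 and -1.54 for replicate 2). They were also lost without IgG replicate 1 (-1.52 and -1.20), and Ropn1 was not called by DESeq2 (-1.43). Cabyr gained a call without IgG replicate 2 (-1.65).

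The axoneme group held 14 members, of which 7 fell. They were the tektins Tekt1, Tekt2, Tekt3 and Tekt4, filament proteins inside the microtubule doublets, and Spag6, Spag16 and Spag17, proteins of the central pair of microtubules. Tekt3 had 5.46 and 2.52 CPM with the LARP7 antibody and 15.5 and 18.2 CPM with IgG, a log2 fold change of -2.08 (SE 0.50, edgeR adjusted p = 0.0168). Tekt2 had 8.83 and 5.05 CPM against 25.9 and 25.8 CPM (-1.90, SE 0.43, edgeR adjusted p = 0.0148), so its IgG libraries were nearly equal and both LARP7 libraries well below them. Tekt1 and Tekt4 had log2 fold changes of -1.68 and -1.40. Tekt5, with 5.72 and 4.59 CPM against 10.1 and 13.3 CPM, had -1.18 and was not called (SE 0.46, edgeR adjusted p = 0.0809). The 5 tektins were not tested against each other. Among the central pair genes Spag6 had 6.24 and 4.13 CPM against 16.7 and 17.7 CPM (-1.73, edgeR adjusted p = 0.0216). Spag17, a long model of 6885 nt, had 31.2 and 15.8 CPM against 70.7 and 66.4 CPM (-1.55, edgeR adjusted p = 0.0413). Spag16 had -1.61, and it was the member whose counts were least certain, since the posterior SD that RSEM gives for reads shared between models reached 0.211 of its count in a library. For the other members this ratio was at most 0.0357, and it was 0 in every library for 30 of the 39.

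The dynein heavy chains, the motors of the axoneme, did not pass the test. Dnah8, an outer arm chain of sperm, had the most counts of all members in the LARP7 libraries, 1078 and 713 against 5198 and 1947, which is 280 and 164 CPM against 406 and 308 CPM. The LARP7 libraries differed from each other by more than the groups were apart at their nearest (log2 fold change -0.69, SE 0.60, edgeR adjusted p = 0.417). Dnah17, the other outer arm chain listed, had 59.0 and 33.0 CPM against 150 and 105 CPM (-1.47, SE 0.53, edgeR adjusted p = 0.0655). The count ratio of Dnah17 to Dnah8 was 0.211 and 0.202 in the LARP7 libraries and 0.370 and 0.339 in the IgG libraries (the difference between these genes was not tested, and the intervals of 1 SE around their fold changes overlap). Dnah1, an inner arm chain, had -0.96 (SE 0.45, edgeR adjusted p = 0.138). Cfap43 and Cfap44, partner proteins that tether the inner arms, had -1.11 and -1.04, and the radial spoke gene Rsph1 had -1.04. None of these 3 was called (edgeR adjusted p = 0.0938, 0.114 and 0.146), although Rsph1 had 58.2 and 32.8 CPM against 93.3 and 93.5 CPM, without overlap. Without LARP7 replicate 2 none of the 7 axoneme calls was kept (log2 fold changes -1.65 to -1.14). Spag16 and Tekt4 also lost theirs without LARP7 replicate 1 (-1.57 and -1.67), Spag16, Spag17 and Tekt4 without IgG replicate 1 (-1.42, -1.48 and -1.20), and Spag17 and Tekt4 without IgG replicate 2 (-1.57 and -1.55). DESeq2 called Dnah17 (-1.41) and not Tekt4 (-1.34).

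CatSper is the calcium channel of the tail that sperm need for hyperactivated swimming, and its 4 pore subunits are listed here. Only Catsper1 was called in edgeR, with counts of 16 and 13 under LARP7 against 148 and 77 under IgG, or 4.16 and 2.98 CPM against 11.6 and 12.2 CPM (log2 fold change -1.73, SE 0.47, edgeR adjusted p = 0.0262). Catsper2 had 14.6 and 7.57 CPM against 34.0 and 15.5 CPM, so that LARP7 replicate 1 came close to IgG replicate 2 (-1.17, SE 0.50, edgeR adjusted p = 0.106). Catsper3 was the tested member whose groups overlapped, at 3.64 and 2.29 CPM against 7.42 and 3.16 CPM (-0.86, SE 0.62, edgeR adjusted p = 0.324). Catsper4 had 3.64 and 2.98 CPM against 8.44 and 6.96 CPM (-1.22, edgeR adjusted p = 0.100). With 10 to 16 counts per LARP7 library Catsper1, Catsper3 and Catsper4 are among the thinnest values of the set, while Catsper2 had 56 and 33. The value of Catsper3 was -0.09 without IgG replicate 1, and that of Catsper2 was -0.48 there and -1.60, a call, without IgG replicate 2. Catsper1 was not called without LARP7 replicate 1 (-1.99) or 2 (-1.51), nor with DESeq2 (-1.68, adjusted p = 0.0511).

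The manchette and the head-tail coupling apparatus gave 6 falls among 7 members, all but Hook1. Fscn3, the testis fascin, an actin-bundling protein, had the largest fall of the 38, with 5 and 6 counts under LARP7 against 134 and 30 under IgG. It passed the filter on low counts through the IgG libraries alone, where it was high, and is limited by depth. Its levels were 1.30 and 1.38 CPM against 10.5 and 4.75 CPM, which shows near-equal LARP7 libraries and unequal IgG libraries (log2 fold change -2.51, SE 0.65, edgeR adjusted p = 0.0217). Rimbp3, a manchette-associated protein that works with Hook1, had 9.09 and 12.2 CPM against 60.9 and 39.2 CPM (-2.23, SE 0.45, edgeR adjusted p = 0.0100). The gap between its groups was wider than the spread within either, and its edgeR adjusted p was 0.0419 and 0.0476 without LARP7 replicates 1 and 2. Spag4, a SUN-domain protein that links the manchette to the nuclear envelope, had 4.68 and 3.21 CPM against 23.1 and 12.5 CPM (-2.18, SE 0.50, edgeR adjusted p = 0.0152). Spem1, which is needed to shed spermatid cytoplasm from the neck, had 4.94 and 2.75 CPM against 19.4 and 14.9 CPM (-2.16, SE 0.48, edgeR adjusted p = 0.0140). In both, the lowest IgG value was more than double the highest LARP7 value. Meig1, which carries cargo along the manchette, had the shortest model, 530 nt, and 15.3 and 7.80 CPM against 48.0 and 38.4 CPM (-1.91, SE 0.45, edgeR adjusted p = 0.0166). Spata6, which is needed for the connecting piece between head and tail, had 30.4 and 25.2 CPM against 95.3 and 104 CPM (-1.84, edgeR adjusted p = 0.0218). Hook1, which links microtubules to cargo, had 27.5 and 16.5 CPM against 54.1 and 53.2 CPM and narrowly missed the threshold (-1.28, SE 0.45, edgeR adjusted p = 0.0579). Without LARP7 replicate 2 only Rimbp3 of the 6 was called, with the others at -2.55 to -1.50. Fscn3 and Spata6 were not called without LARP7 replicate 1 (-2.47 and -1.98), nor Fscn3 and Spag4 without IgG replicate 1 (-1.79 and -1.65).

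Promoters of the members were read as a feature that the choice of members did not use. RefSeq windows of GRCm38.p6 were matched by symbol for 33 of the 39 members, in 44 windows, and the 250 bases before the start were searched on both strands for 9 short letter strings. GTTGCC, the core of the X-box that RFX factors of ciliated cells are known to read, was in 10 of 44 windows (22.7%) and in 10.4% of all 32851 windows, and the related GTTGCTA was in 13.6% and 3.16%. TGACGT, the core of the cyclic AMP response element that the spermatid factor CREM reads, was in 11.4% and 6.47%, and within it the full TGACGTCA was in 2.27% and 1.55% and TGACGTAA in 2.27% and 0.447%. TATAAA was in 4.55% and 12.4%, CCAAT in 22.7% and 33.8%, CCATGG in 6.82% and 7.10%. The longer X-box string that joins GTTGCC and CCATGG over their shared CC was in 0 windows of members and 0.469% of all. Windows of 1 gene overlap in part, and a match of letters is not a measured site. To show such stretches for 3 of the manchette genes with the largest falls, 100 bases are printed for each, 5′ to 3′ on the gene's strand, with the matched letters in capitals; TTTATA and GGCAAC are TATAAA and GTTGCC on the other strand. They lie at chr6:28427801-28427900 on the plus strand for Fscn3, chr2:156065113-156065212 on the plus strand for Spag4 and chr11:69822195-69822294 on the minus strand for Spem1.
Fscn3: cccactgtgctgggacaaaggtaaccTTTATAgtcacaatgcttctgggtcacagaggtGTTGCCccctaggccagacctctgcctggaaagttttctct
Spag4: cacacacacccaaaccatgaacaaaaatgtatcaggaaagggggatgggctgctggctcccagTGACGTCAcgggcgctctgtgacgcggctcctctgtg
Spem1: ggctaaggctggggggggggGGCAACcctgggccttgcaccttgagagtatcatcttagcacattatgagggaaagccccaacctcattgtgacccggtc
Positions are counted from the start that each promoter window names. In Fscn3 the first match begins 74 bases before the start, in Spag4 the full response element begins 37 bases before it, and in Spem1 the match begins 109 bases before it. For Fscn3 and Spag4 the RefSeq gene begins further upstream, at 28427870 and 156065188, so their printed stretches run into the gene.

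The mitochondrial sheath wraps the midpiece. All 3 members of the group that holds its genes fell. Smcp, the cysteine-rich protein of the mitochondrial capsule, had 141 and 102 counts under LARP7 against 1584 and 1116 under IgG, or 36.6 and 23.4 CPM against 124 and 177 CPM. That is 5.00-fold lower (log2 fold change -2.32, SE 0.54, edgeR adjusted p = 0.0158), with a gap between the groups larger than the spread within either. Gsg1, a germ cell protein that binds the testis poly(A) polymerase, had 32.5 and 20.0 CPM against 155 and 119 CPM and was 5.22-fold lower (-2.38, SE 0.53, edgeR adjusted p = 0.0139). Spata18, a mitochondrial quality control protein, had 17.1 and 9.87 CPM against 40.9 and 36.9 CPM (-1.53, SE 0.42, edgeR adjusted p = 0.0270). Without LARP7 replicate 2 none of the 3 was called (-2.03, -2.07 and -1.18), and Spata18 was not called without IgG replicate 1 (-1.43). In counts within a library the ratio of Smcp to Rsph1, genes of like length that were paired after their values were seen, was 0.629 and 0.713 in the LARP7 libraries and 1.33 and 1.89 in the IgG libraries.

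Per unit of length Odf2 had the highest mean in both groups. On the TPM scale of the authors, which divides by effective length, Odf2 had 30.7 and 18.2 TPM in the IgG libraries. Next in the mean came Smcp (26.6 and 19.2 TPM), which was above Odf2 in IgG replicate 2, and Odf1 (25.3 and 13.1 TPM). The replicate ranges of these 3 overlapped, so their order is not settled. In the mean of the LARP7 libraries Odf2 stood first (0.860 and 1.44 TPM), followed by Ropn1l (0.670 and 1.15 TPM) and Odf1 (0.710 and 1.00 TPM). Smcp ranked 5 (0.630 and 0.820 TPM). The ranges of Odf2, Ropn1l and Odf1 overlapped, those of Odf2 and Smcp did not, and Odf2 stood first in both LARP7 libraries. Dnah8, which led in counts with the LARP7 antibody, had 0.260 and 0.320 TPM there, since its model is 14583 nt long.

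The fold changes were then set beside protein-coding genes of like count and length. For each member these were the protein-coding genes tested, other than members, whose model length and mean CPM over the 4 libraries lay within 2-fold of its own, between 9 and 3433 genes. Every tested member lay below the median of its like genes, by a median of 1.27 on the log2 scale, and 17 of the 38 were in the lowest 10% of theirs. The medians of the like genes ran from -0.82 to 2.12, and a median of 18.4% of them were called lower. With a window of 1.5-fold, which held between 1 and 1315 like genes, 37 of the 38 lay below, by a median of 1.16. Dnah8 had 1 like gene there and Odf2 had 5. The exception in this window was Rsph1, which had -1.04 beside a median of -1.24 over 39 like genes. The largest gaps belonged to long or abundant models. Dnah17 had -1.47 beside a median of 1.92 over 64 like genes, of which 67.2% were called higher with LARP7. Odf2 had -1.68 beside 1.35 over 26 like genes, and Rimbp3 had -2.23 beside 0.30 over 701, of which 0.428% lay below it. Dnah8, which was not called, had -0.69 beside 2.12, and none of its 9 like genes lay below it. At the other end Rsph1 and Ropn1l (-1.14 beside -0.77 over 147 genes) were close to their like genes, with 47.0% and 41.5% of these below them. These like genes are a description and not a test, and they differ from the members in more than count and length. The mean CPM used for matching includes the LARP7 libraries. Genes raised with LARP7 can therefore enter the windows of abundant members through that rise, which widens the gaps there.

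**Figure D4:**
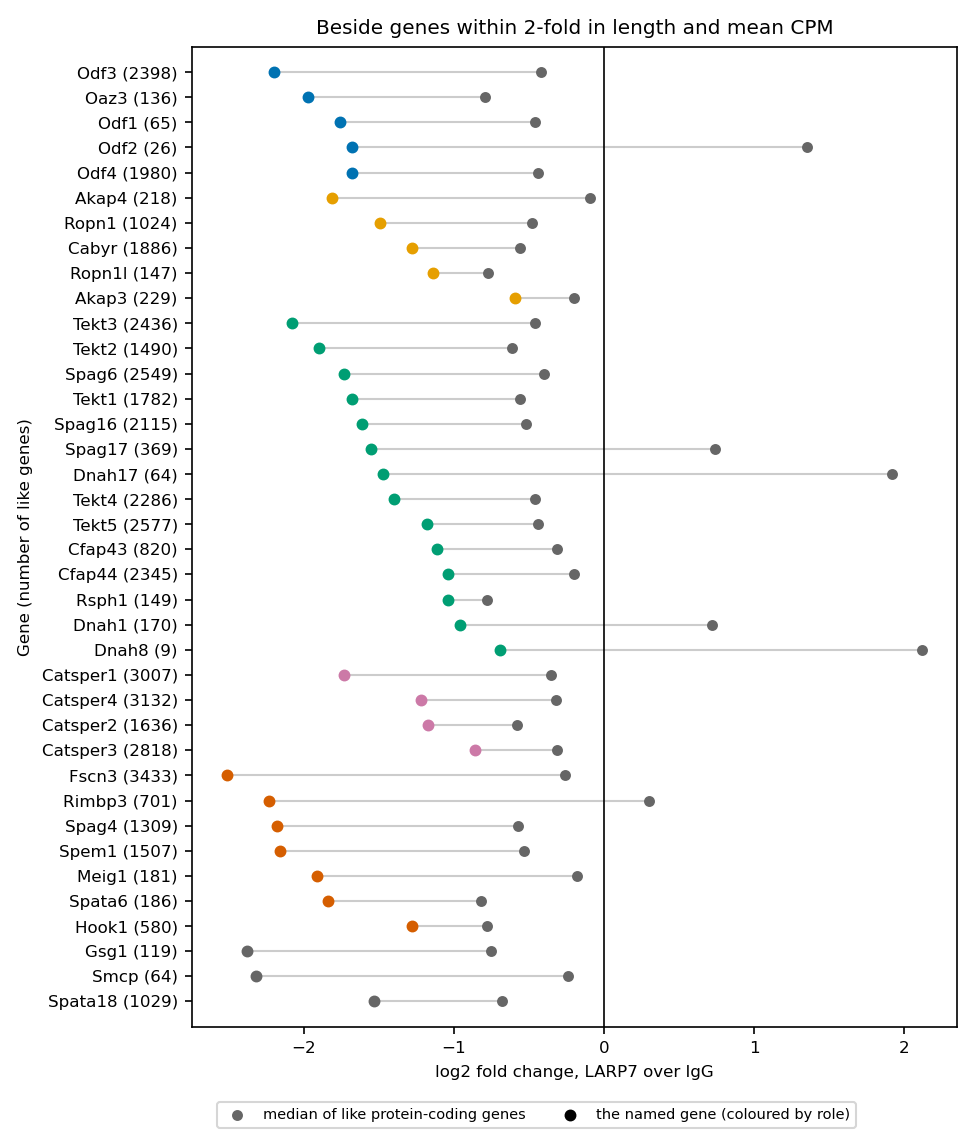
Log2 fold change of LARP7 over IgG for each of the 38 genes tested (coloured by role) and the median of protein-coding genes within 2-fold in model length and mean CPM (dark grey), with the number of like genes in brackets. The coloured point lies left of the grey one in every row, and the widest gaps are those of Dnah17, Odf2 and Dnah8.

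The background differed with length. With the protein-coding genes split by model length into 5 groups of like size, the median log2 fold change of genes other than members was -0.41 for the shortest (up to 1258 nt), -0.50, -0.36, -0.11 and 0.31 for the longest (from 4016 nt). The members in these groups numbered 12, 14, 3, 4 and 5 and had medians of -1.87, -1.47, -1.73, -1.08 and -1.47. Of the 5 members in the longest group, where 4.49% of other genes fell and 21.3% rose, Spag17 and Rimbp3 fell and Dnah1, Dnah8 and Dnah17 had values below 0 without a call. Across the 38 members log2 fold change and log2 length correlated at r = 0.371, against 0.183 across all 9929 protein-coding genes, and log2 fold change and log2 mean CPM at 0.131 against 0.166. These correlations are across genes of the same 4 libraries, which are not independent replicates.

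**Figure D5:**
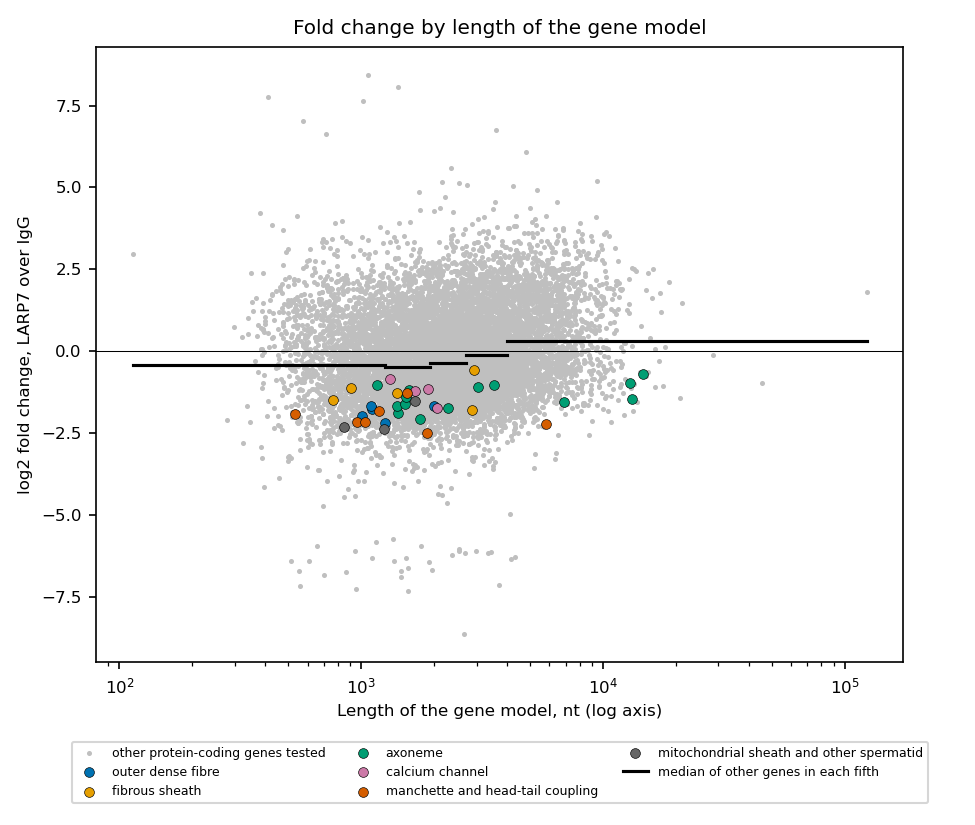
Log2 fold change of LARP7 over IgG against length of the gene model (log axis) for protein-coding genes tested, in grey, and the 38 members, coloured by role; black bars are medians of the other genes in 5 groups of length. The bars run from -0.41 in the shortest group to 0.31 in the longest, and all coloured points lie below 0.

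Other genes of the sperm tail and manchette, from lists that hold none of the 39, gave 53 lower and 3 higher of 148 tested, a median of -1.26 and 35.8% lower, against the 9.69% of all genes. By role, lower calls numbered 7 of 13 for channels and transporters, 6 of 11 for the mitochondrial sheath, 6 of 12 for fibrous sheath and outer dense fibre, 13 of 32 for manchette and head-tail coupling, 16 of 59 for the axoneme and 5 of 21 for dynein arms. Kcnu1, the pore of the sperm potassium channel, fell most, with 6 and 3 counts under LARP7 against 152 and 59 under IgG, a log2 fold change of -3.24 (SE 0.61, edgeR adjusted p = 0.00794). Armc12, a mitochondrial sheath protein, had 7 and 6 counts against 133 and 74 (-2.78, SE 0.54, edgeR adjusted p = 0.00896). Kcnu1 and Armc12 both passed the filter on low counts through the IgG libraries alone, where they were high, so both are limited by depth. The same holds for Spef2, Cep131 and Efcab9, which were also called lower. Their counts were 9 and 7, 8 and 5, and 7 and 7 under LARP7. Under IgG they were 110 and 49, 102 and 41, and 95 and 49. How many of the 53 entered the test in this way was not counted. The 3 genes higher were all in the dynein arm list. Dnal1, a dynein light chain, had 95.9 and 133 CPM against 19.4 and 40.0 CPM (1.95, edgeR adjusted p = 0.0274), and Zmynd10 and Dnaaf2, assembly factors for dynein arms, had 1.53 and 1.28. With library totals these had 0.62, 0.12 and -0.12. In that setting 136 of the 148 genes were lower and 0 higher, where 47.1% of all genes tested were lower and 3.95% higher. None of Kcnu1, Armc12, Dnal1, Zmynd10 and Dnaaf2 was called without LARP7 replicate 2 (edgeR adjusted p = 0.0691, 0.0716, 0.112, 0.0927 and 0.0993), and Dnal1 was not called without IgG replicate 1 either (edgeR adjusted p = 0.176). Zmynd10 and Dnaaf2 were called in none of the 4 fits that left out a library.

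Markers of testis cells were set beside the members. Spermatid markers had 5 lower and 0 higher of 10 (median -1.62), with summed levels of 402 and 263 CPM in the LARP7 libraries against 957 and 1060 CPM in the IgG libraries. Prm1, the protamine that packs sperm DNA, had 13.0 and 9.41 CPM against 61.1 and 58.2 CPM (-2.41, edgeR adjusted p = 0.00791, and 0.0507 without LARP7 replicate 2). Spermatocyte markers had 1 lower of 9 tested (median -0.70), Sertoli cell markers 1 of 6 (-1.04) and Leydig cell markers 0 of 8 (-0.14). Over all genes tested 9.69% were lower. The Sertoli call was that of Wt1, with 8 and 4 counts under LARP7 against 59 and 50 under IgG. Wt1 passed the filter on low counts through the IgG libraries alone, where it was high, and is limited by depth. Summed spermatocyte levels were 496 and 339 CPM against 820 and 605 CPM, and Sertoli levels 56.9 and 40.4 CPM against 92.5 and 83.2 CPM. Both sums thus also lay below IgG in each LARP7 library. Summed Leydig levels were 57.7 and 49.8 CPM against 56.2 and 59.6 CPM. None of the 8 blood and endothelial markers passed the filter, and their summed levels were 2.52 to 5.20 CPM. The spermatid list thus moved with the tail genes, and its part in their fall was not tested. Differences between the lists were not tested.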

How the data were processed

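RIP libraries of mouse testis (2 LARP7, 2 IgG) were analysed from the authors' tables per gene model. The submitters' processing notes name cutadapt, Bowtie2, RSEM and build mm10; for versions, annotation and strand handling the entry is: not given in the sources used here. Per the file headers, the deposited values are expected counts (estimated counts in which RSEM splits multiply mapping reads), TPM per effective length, a posterior SD of the count (an estimated signal on the scale of counts), and model lengths, which differ between libraries and were averaged. Expected counts were rounded; before that, 13.4% to 18.9% of models per library were not whole. Biotypes and positions came from a RefSeq table (GRCm38.p6) matched by symbol (35715 models, 70.6%; all 39 members).

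The test was edgeR 4.0.16 in R 4.3.3: filterByExpr, TMM, robust quasi-likelihood F tests of antibody over all 4 libraries, two-sided, Benjamini-Hochberg over 12234 genes, threshold 0.05. TMM factors were 0.558 and 0.673 (LARP7) and 1.85 and 1.44 (IgG). The standard error is the unshrunk log2 fold change over the square root of F. The script was tested on simulated data. Alternatives were library totals, DESeq2 1.42.0, no filter, limma 3.58.1 on log2(TPM + 1) or log2(TPM + 0.1), each library left out with the gene filter kept, and replicate number as a block. The members and lists were chosen with earlier results of these data known, so list counts and medians are descriptions. All members could be named; of other lists, the called genes with the largest changes, at most 3 each way. Pairs for count ratios, promoter strings and printed stretches were chosen after values were seen. Of 39 members, 21 overlap another RefSeq gene; strand handling being unstated, reads of overlapping genes may not be told apart.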

Additional observations from a re-analysis of the deposited data

How the results depend on the processing

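In each of the alternatives named above 0 members were called higher and each tested member kept a log2 fold change below 0. A block that pairs LARP7 replicate 1 with IgG replicate 2 was also fitted and is not reported here. The count of members lower, 22, became 38 with library totals and 38 with limma on log2(TPM + 0.1), where 47.1% and 52.1% of all genes were called lower. With limma on log2(TPM + 1) it was 0, as for all 12234 genes; at an unadjusted p under 0.05, 36 members were lower, and 5778 of all genes differed in either direction. It ran from 1 to 21 when a library was left out, lowest without LARP7 replicate 2. DESeq2 called 20 and no filter gave 27 of 39. The median of -1.65 was -3.08 with library totals and -3.14 with limma on log2(TPM + 0.1), and ran from -1.98 to -1.37 with a library left out. With replicate number as a block 29 members were lower (11.5% of all genes) and the median was -1.61: Odf2, Ropn1l, Cabyr, Dnah1, Dnah17, Cfap43, Catsper2 and Hook1 gained a call and Odf3 lost its own (-2.23). The labels do not say that equal replicate numbers share a lysate or day, so the pairing is unsettled; over 12234 genes, replicate 1 minus replicate 2 correlated at 0.23 between the groups. The median gap to like genes was -1.27, and -1.16 with the narrower window. Odf3 and Akap14, with 3 counts in LARP7 replicate 2, and Fscn3, with 5 and 6 counts under LARP7, are limited by depth.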
